A study of Mus musculus with 2 samples.

Results

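In the urinary bladder of newborn mice, 1148 of 20807 protein-coding genes (5.52%, 95% exact binomial interval 5.21 to 5.84) carried a promoter peak of DNase-seq in exactly 1 of 2 replicates. The members were chosen by the measured peak calls themselves. For each GENCODE M21 protein-coding gene on chromosomes 1 to 19, a window of 500 bp on either side of every annotated transcription start site (TSS) was searched in the longer of the 2 deposited peak lists of each replicate, and an overlap of 1 bp counted. A peak in replicate 1 only was found at 662 genes (3.18% of all genes, 2.95 to 3.43) and a peak in replicate 2 only at 486 genes (2.34%, 2.13 to 2.55). Both replicates had a peak at 13225 genes and neither had one at 6434, so the members made up 7.99% (7.55 to 8.44) of the 14373 genes with any promoter peak. Because the calls chose the members, all counts, heights and distances are descriptions of these libraries with n = 1 a side, and no test was made on them.

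DNase I cuts DNA most readily where nucleosomes are absent, and DNase-seq counts the cut ends that result. Active promoters in mammals are usually nucleosome-depleted just upstream of the TSS, and many lie in CpG islands, stretches rich in G, C and the dinucleotide CG that tend to be accessible in most tissues. Promoters of tissue-restricted genes more often lack an island and are accessible only in the cells that use the gene. The bladder combines a lining epithelium (urothelium), a fibroblast-rich lamina propria, a smooth muscle coat, vessels, nerves and a mesothelial cover, so a promoter used in few of its cells adds few cuts to a library of the whole organ. Fewer cells with an accessible promoter and fewer cuts per cell cannot be told apart in such a library.

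The bladders came from 4-day-old females of B6CASTF1/J, the first-generation cross of C57BL/6J and CAST/EiJ mice, with no treatment and no second group. Labels give the replicates different female numbers but the same donor identifier, so the spread between them may be partly technical. Positions refer to mm10, an assembly of C57BL/6J, and any effect of the CAST/EiJ allele on the calls was not tested. Replicate 1 had 96518 peaks and replicate 2 had 122870. Their total depths are unknown, but heights rose in equal steps, of 0.00466 in replicate 1 and 0.00417 in replicate 2 (100% of peaks, within 0.02 steps). Among 21 smooth muscle genes, 18 were open in both, including Acta2 (heights 1.13 and 0.863) and Myh11 (2.60 and 2.24). Of 25 urothelial genes 13 had one in both. Of 14 hepatocyte genes 13, Alb among them, had no peak in either, and Trf had a peak in both. Of 18 leukocyte genes 13, Ptprc among them, had no peak in either. In both, 3 leukocyte genes had a peak, including Coro1a (3.05 and 2.14).

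To show what such promoters look like, the central part of 6 member peaks outside annotated exons is given, 3 from each side, 5′ to 3′ on the strand of the gene, with each CG dinucleotide in capitals. For replicate 1 these are Jag2 (chr12:112928449-112928574, minus strand), Gm21969 (chr4:139602756-139602905, plus strand) and Hoxb7 (chr11:96286516-96286608, plus strand). For replicate 2 they are Agrp (chr8:105636816-105636934, minus strand), Gm4981 (chr10:58236726-58236875, minus strand) and Piwil1 (chr5:128736030-128736171, plus strand). Sequences were read from the RefSeq copy of GRCm38, of which mm10 is the browser name.
Jag2: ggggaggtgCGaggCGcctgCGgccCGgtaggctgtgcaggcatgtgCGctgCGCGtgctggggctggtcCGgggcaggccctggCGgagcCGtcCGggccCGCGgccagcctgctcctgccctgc
Gm21969: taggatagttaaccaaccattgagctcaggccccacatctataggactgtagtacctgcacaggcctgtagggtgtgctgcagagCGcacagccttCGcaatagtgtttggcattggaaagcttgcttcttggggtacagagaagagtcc
Hoxb7: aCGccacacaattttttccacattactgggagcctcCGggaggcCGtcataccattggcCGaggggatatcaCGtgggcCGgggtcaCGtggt
Agrp: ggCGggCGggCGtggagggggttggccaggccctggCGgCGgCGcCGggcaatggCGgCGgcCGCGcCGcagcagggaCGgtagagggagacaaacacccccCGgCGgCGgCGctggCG
Gm4981: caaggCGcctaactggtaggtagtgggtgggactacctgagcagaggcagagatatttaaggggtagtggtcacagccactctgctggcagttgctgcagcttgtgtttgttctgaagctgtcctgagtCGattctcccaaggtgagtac
Piwil1: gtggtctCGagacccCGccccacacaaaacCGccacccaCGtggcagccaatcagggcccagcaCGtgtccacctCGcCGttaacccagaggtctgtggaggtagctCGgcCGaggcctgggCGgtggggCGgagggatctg
The stretches at Jag2 and Agrp were made of 79.4% and 81.5% G and C and held 13 and 18 CG dinucleotides, as island promoters do. Those at Gm21969 and Gm4981 had 51.3% and 53.3% and held 2 each. Hoxb7 (59.1%, 7 CG) and Piwil1 (68.3%, 11 CG) lay between them. Both sides held island-like and CG-poor stretches. The Agrp stretch lay in a peak shared with Ctcf, at an annotated TSS far upstream of the peptide's own, with a replicate 1 peak close by.

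Member peaks were lower than the peaks of promoters open in both replicates, but not low for their lists, whose medians over all peaks were 0.517 in replicate 1 and 0.321 in replicate 2. The tallest promoter peak of a gene open in replicate 1 only had a median height of 0.515 (quartiles 0.388 and 0.657, range 0.0605 to 2.13), against 2.64 in the same replicate at genes open in both. In replicate 2 the medians were 0.379 (quartiles 0.279 and 0.474, range 0.0542 to 1.20) and 1.92. In steps, the median member stood 110.5 high in replicate 1 and 91 high in replicate 2. The median member was taller than only 3.88% (replicate 1) and 1.25% (replicate 2) of the promoters open in both. Member peaks were also narrower, with median widths of 170 and 151.5 bp against 240 and 220 bp.

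**Figure D1:**
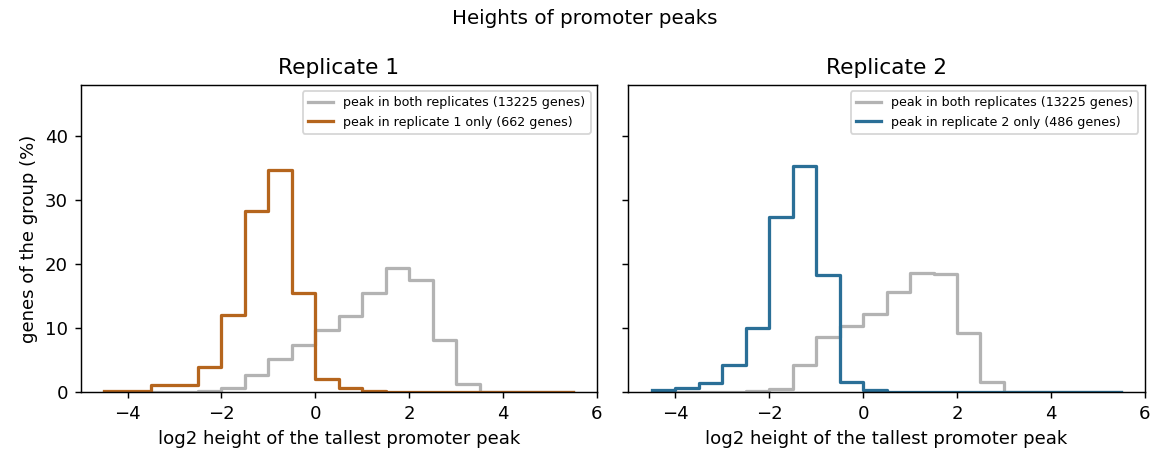
Distribution of the log2 height of the tallest promoter peak in replicate 1 (left) and replicate 2 (right), as a percentage of the genes of each group in bins of 0.5. Coloured lines are genes with a peak in that replicate only, grey lines are genes with a peak in both; the coloured lines lie to the left of the grey ones in both panels and overlap their lower ends.

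How often a promoter peak lacked a counterpart depended on its height. Of replicate 1 promoter peaks under 0.25 high, 55.8% (95% exact binomial interval 44.1 to 67.2) had no peak of replicate 2 in the windows of the gene, and the share was 37.5% from 0.25 to 0.5, 23.9% from 0.5 to 0.75 and 7.61% from 0.75 to 1. Above a height of 2 it was 0.0122%, or 1 gene of 8203. Replicate 2 promoter peaks under 0.25 lacked a counterpart at 71.9% of genes (62.7 to 79.9), those from 0.25 to 0.5 at 32.1%, those from 0.5 to 0.75 at 6.22%, and none of 1780 from 1.5 to 2 did. Height alone did not part the groups. Within the quartiles of the replicate 1 members, 786 genes had a peak in both replicates and a median height of 0.50 in replicate 2; within those of the replicate 2 members, 506 genes had a median of 0.470 in replicate 1.

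**Figure D2:**
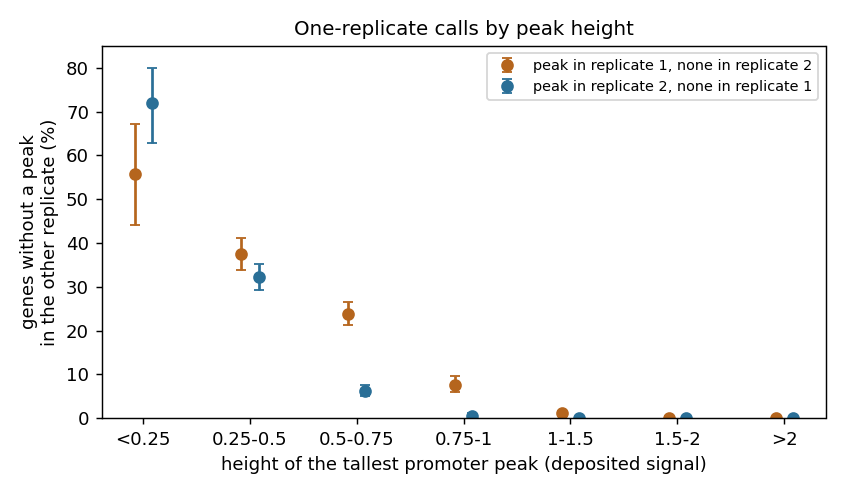
Share of genes with a promoter peak in 1 replicate and none in the other (percent, vertical axis) by the height of that peak (horizontal axis, deposited signal), with 95% exact binomial intervals over genes. Both replicates run from over 50% in the lowest bin to under 2% above a height of 1.

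At most members of the longer lists, nothing was listed for the other replicate at the promoter. The deposited rate lists give a false discovery rate for each stretch of bases, up to 0.05. The windows of 113 of the 662 replicate 1 members (17.1%, 14.3 to 20.2) held such a stretch of replicate 2, and those of 63 of the 486 replicate 2 members (13.0%, 10.1 to 16.3) held 1 of replicate 1. At genes with no promoter peak at all the shares were 1.68% and 1.97%. At genes open in both, whose windows hold a peak of the other replicate by the rule, they were 100%. These groups too were formed by the peak calls, so their shares are not independent reference levels. The stretches were short, with a median of 18 and 17 listed bases, and their lowest rates had medians of 0.0388 and 0.0392, close to the limit of the list. No listed stretch in the windows and no overlapping peak of the other replicate were found at 533 (80.5%) and 422 (86.8%) members. With the stricter lists in both replicates, which choose other sets of 877 and 332 genes, a listed stretch of the other replicate was present at 83.5% and 54.5%. Footprints, short protected stretches inside accessible sites, lay in 78.1% of the member peaks of replicate 1 and 69.5% of those of replicate 2 by the footprint list of the same replicate, and in 18 and 5 member peaks by that of the other.

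The nearest peak of the other replicate lay at widely varying distances, always outside the windows by the rule. Its median distance from the member peak was 7907 bp for replicate 1 members and 10920 bp for replicate 2 members. It overlapped or touched the member peak at 22 and 4 genes, lay within 1000 bp at 94 (14.2%) and 49 (10.1%), and lay over 10 kb away at 295 (44.6%) and 253 (52.1%). Far ones among replicate 1 members were Dgkb, a diacylglycerol kinase (258361 bp), and Casp12, an inflammatory-type caspase (183643 bp). Among replicate 2 members they were the olfactory receptor gene Olfr1099 (320554 bp), the cystatin gene Cst10 (300003 bp) and the serotonin receptor gene Htr1f (231231 bp). Each of these peaks was under 0.6 high.

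At the other end, some members missed by a few bases. A replicate 2 peak ended 6 bp outside the windows of Tbx5, a T-box regulator of heart and forelimb, 8 bp outside those of P3h3, a collagen prolyl hydroxylase, and 11 bp outside those of 4930503E14Rik, and it overlapped the replicate 1 peak in each case. A replicate 1 peak lay 16 bp outside the windows of Inha, the inhibin alpha subunit, and 17 bp outside those of Sst, which encodes somatostatin. On the other side of the limit, 1700092M07Rik and Apba2 counted as open in both through 2 bases. Without the members whose peak overlapped a peak of the other replicate, 640 and 482 remained.

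The tallest members of replicate 1 included several of these edge cases. P3h3 (ENSMUSG00000023191.9) was tallest at 2.13 (95% exact Poisson interval 1.94 to 2.34, counting error only), and the overlapping replicate 2 peak was 1.81 high. Its replicate 1 peak, at chr6:124857001-124857240, was centred 609 bp downstream of the nearest TSS used and outside exons. Gm10722, at 1.96, lay near the start of chromosome 9 in sequence that is repeat-masked throughout (100% of the peak), and a replicate 2 peak of 13.8 stood 800 bp away. Hoxd9, a posterior Hox gene, followed at 1.44 (1.28 to 1.61), centred in an exon 243 bp from the TSS, with the nearest replicate 2 peak 4220 bp away. Wdr24, part of the GATOR2 complex that signals amino acid levels to mTORC1, had 1.42, Ski, a repressor of TGF-beta signalling, 1.41, Gm21969 1.34, Igdcc4, an immunoglobulin-family surface protein, 1.31, the Notch ligand gene Jag2 1.06, and 9430097D07Rik, which shares its peak with Pip5kl1, 1.05. At P3h3, Ski and Igdcc4 a replicate 2 peak overlapped but stopped short of the window. Wdr24 and Hoxd9 were the tallest whose nearest replicate 2 peak lay over 4 kb away.

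In replicate 2 the tallest member was Inha (ENSMUSG00000032968.4) at 1.20 (1.07 to 1.35), at chr1:75506281-75506580, whose peak a replicate 1 peak 1.83 high overlapped. Agrp, which encodes a hypothalamic appetite peptide, followed at 1.05 (0.929 to 1.19), through an annotated TSS far upstream of the peptide's own that shares the peak with Ctcf, the insulator protein gene, and a replicate 1 peak 2.38 high lay 140 bp away. Gm4981 had 0.905, Shank1, a postsynaptic scaffold gene, 0.867, the cytokine gene Il23a 0.817, Rgs7bp, a partner of G protein regulators, 0.801, the homeobox gene Dlx3 0.796, the thrombospondin gene Thbs3 0.788, the calcium-binding protein gene Cabp1 0.730 and Trim10 0.713. A replicate 1 peak overlapped 2 of these 10, at Inha and Rgs7bp. Each of the other 8 peaks was under 1.1 high. Il23a and Trim10 stood 5242 and 32836 bp from the nearest replicate 1 peak.

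Base composition differed between the sides. Promoter windows of replicate 1 members had a median GC content of 53.3%, close to the 53.7% of genes open in both, while those of replicate 2 members had 50.9%, below the 51.5% of all genes and above the 44.9% of genes open in neither. The ratio of observed to expected CG dinucleotides was 0.356 and 0.311 on the 2 sides, between genes open in both (0.537) and in neither (0.171). Among members whose windows held under 50% GC, the sides were near equal, with 126 and 128 genes from 45 to 50%. From 60 to 65% GC there were 74 replicate 1 members and 16 replicate 2 members, so replicate 1 made up 82.2% of them (95% exact binomial interval over genes 72.7 to 89.5). By CG ratio, the share of replicate 1 ran from 45.8% of members under 0.2 to 84.6% at 0.8 and above.

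**Figure D3:**
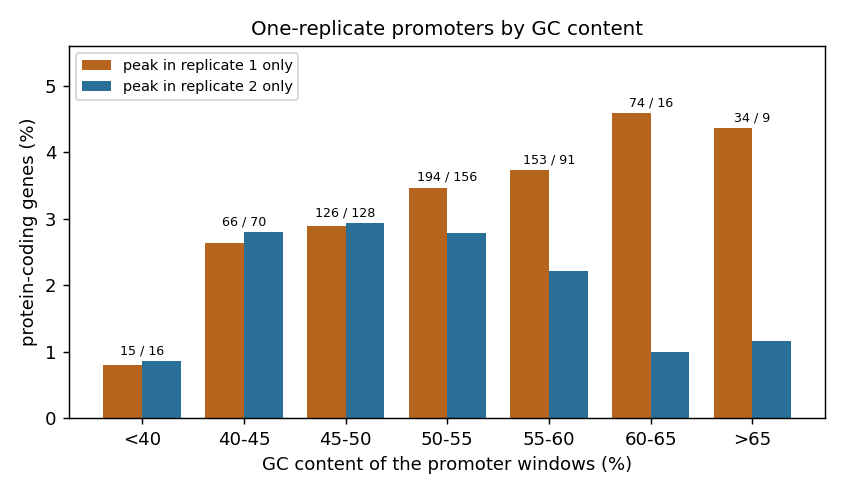
Percentage of protein-coding genes with a promoter peak in replicate 1 only and in replicate 2 only, by GC content of the promoter windows; bars start at 0 and the pairs of numbers above them are the genes of each side. Replicate 1 bars reach 4.58% from 60 to 65% GC, where replicate 2 bars stand at 0.991%.

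At genes open in both, the heights were compared over the same bins. Their median log2 ratio of replicate 2 over replicate 1 was -0.41 in all, and from -0.37 to -0.42 in the GC bins. By CG ratio it was -0.25 under 0.2, -0.35 from 0.2 to 0.3 and from -0.41 to -0.43 above. Whether the GC content of the promoter windows bears on the unequal numbers of members was not tested.

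Motifs common in island promoters were rarer around the centres of member peaks than around those of peaks at genes open in both. Matches on both strands were counted in the 200 bp centred on each peak. These 200 bp ran past the ends of narrower peaks, so a match need not lie inside the peak. Median widths were 170 and 151.5 bp for member peaks, and 240 and 220 bp at genes open in both. The SP box GGGCGG was present at 31.3% of the 648 distinct member peaks of replicate 1 and 27.3% of the 480 of replicate 2. It was present at 63.8% and 64.9% of peaks at genes open in both, and in 40.7% of windows at the 5′ ends of all genes. The NRF1 motif was in 1.23% and 1.04% against 9.36% and 9.73% (5.41% of all), and the ETS motif CCGGAAG in 3.55% and 2.29% against 14.9% and 15.2% (9.78% of all). Shares were higher at member peaks for CAGGTG, an E-box bound by basic helix-loop-helix and Zeb factors. They were 18.8% and 20.8% against 11.2% and 11.2% (14.3% of all). The AP-1 motif TGANTCA was in 5.40% and 2.92% against 2.31% and 2.57% (4.08% of all). The same 200 bp also differed in base composition. Their median GC content was 60.5% and 58.5% at member peaks, against 66.5% at genes open in both for either replicate. Median CG dinucleotides were 9 and 7, against 18. The part that base composition plays in the motif shares was not tested. A match is a description of letters and not of binding, and none of these motifs contains another.

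Among gene classes, Hox genes lay on the replicate 1 side. These genes encode homeodomain factors that pattern the body axis, and the bladder, a caudal organ, uses posterior members. Of 39 Hox genes 17 were open in both, 11 in replicate 1 only, 0 in replicate 2 only and 11 in neither. The 11 made up 28.2% of the list, where 3.18% of all genes were open in replicate 1 only. Their heights ran from 0.433 to 1.44 with a median of 0.75, above the median of all replicate 1 members. Hoxd9 stood at 1.44, Hoxa6 at 0.978, and Hoxd3 and Hoxd4 shared a peak at 0.978; Hoxb7 had 0.917, Hoxa2 0.75, Hoxb13 0.712, Hoxd1 0.694, Hoxd13 0.652, Hoxc12 0.470 and Hoxc4 0.433. All 4 clusters and both anterior and posterior genes were thus represented. Only Hoxd3 and Hoxd13 had a listed stretch of replicate 2 in their windows. At the 17 Hox genes open in both, the median heights were 1.76 and 1.21. Their median log2 ratio of replicate 2 over replicate 1 was -0.50, against -0.41 for all genes open in both. Of the 17, 9 lay below that -0.41. When the stricter lists were used for both replicates, 8 Hox genes were open in replicate 1 only and 2 in replicate 2 only. All genes then gave 877 and 332 members.

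Other developmental gene classes differed in their split. Homeobox genes outside the Hox clusters gave 21 replicate 1 members and 6 replicate 2 members of 129 (16.3% and 4.65%, against 3.18% and 2.34% of all genes), with 70 open in both. The tallest of replicate 1 were Tlx2 at 0.964 (0.837 to 1.10), a factor of enteric and other neural crest neurons, and Irx2 at 0.941 (0.815 to 1.08), an Iroquois patterning gene. For replicate 2 they were Dlx3 at 0.796 (0.687 to 0.918), known in skin, tooth and placenta, and Pax3 at 0.550 (0.460 to 0.653), a neural crest and muscle progenitor factor. Windows of 250 bp gave 21 and 12. The stricter lists gave 14 and 7, where all genes gave 877 and 332 members. Sox, forkhead and T-box genes gave 10 and 5 of 71 (14.1% and 7.04%). Foxa1 (0.666), the endodermal pioneer factor of urothelium, and Foxs1 (0.647) led replicate 1. Sox1 (0.492), a neural progenitor factor, and Tbx15 (0.463) led replicate 2. Median window GC content was 58.7% for the non-Hox homeobox genes and 60.01% for the Sox, forkhead and T-box genes, in the range where replicate 1 members outnumbered replicate 2 members among all genes. The part that GC content plays in these counts was not tested. The bHLH factor genes gave 2 and 1 of 50 (4% and 2%). Ligand genes of the TGF-beta superfamily gave 2 and 3 of 32 (6.25% and 9.4%), and Wnt and Frizzled genes 0 and 0 of 29.

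Channel, receptor and transporter classes varied, beside the 3.18% and 2.34% of all genes. Potassium channel genes gave 13 and 3 of 92 (14.1% and 3.26%). With the stricter lists they gave 17 and 7, where all genes gave 877 and 332 members. With the longer lists, the voltage-gated modifier subunit Kcng1 (0.852) and the leak channel gene Kcnk4 (0.806) led replicate 1. Kcnk9 (0.421) and the BK channel subunit Kcnmb2 (0.371) led replicate 2. Sodium and calcium channel genes gave 4 and 2 of 39 (10.3% and 5.13%), with Cacna1d (0.549) and Cacna1e (0.504) tallest. Vomeronasal and trace amine receptor genes gave 0 and 1 of 342 (0% and 0.292%), and taste receptor genes none of 38. Chemokine and interleukin receptor genes gave 7 and 2 of 51 (13.7% and 3.92%). Il17re (0.689) and Il10ra (0.554), the ligand-binding chain of the IL-10 receptor, led replicate 1. Orphan and adhesion receptor genes gave 10 and 6 of 97 (10.3% and 6.19%). Solute carriers gave 21 and 14 of 372 (5.65% and 3.76%), with the amino acid transporter gene Slc38a8 (0.815) and the sodium-proton exchanger gene Slc9a5 (0.605) tallest. The urea transporter genes Slc14a1 (0.517) and Slc14a2 (0.309) were both on the replicate 2 side. Collagen genes gave 5 and 2 of 42 (11.9% and 4.76%), histone genes 6 and 1 of 67 (8.96% and 1.49%).

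Members of a short germ cell list lay mostly on the replicate 2 side. Of 23 genes measured, 8 were open in replicate 2 only (34.8%, against 2.34% of all genes), 1 in replicate 1 only, 8 in both and 6 in neither. The 8 were Piwil1 (0.650, 95% exact Poisson interval 0.552 to 0.761), a PIWI protein that binds piRNAs, Sycp3 (0.559, 0.468 to 0.662) of the synaptonemal complex, the testis tubulin gene Tuba3a (0.509), Mael (0.467) and Asz1 (0.271) of the piRNA pathway, the germ cell surface protein gene Tex101 (0.459), Ddx4 (0.396), the Vasa RNA helicase, and Hormad1 (0.304), a protein of meiotic chromosome axes. None had a listed stretch of replicate 1 in its windows, and the nearest replicate 1 peak lay a median of 9712 bp away. Promoters of several of these genes are CpG-rich and methylated in somatic cells, and the windows of the 8 had a median GC content of 54.2% and a CG ratio of 0.575. A larger class of 112 genes named for testis expression or spermatogenesis gave 3 and 5 (2.68% and 4.46%), nearer to the shares of all genes and with members on both sides. The germ cell list member of replicate 1 was Slc25a31 (0.461), the testis ADP/ATP carrier. None of the 8 peaks was in the stricter list of replicate 2, and with the stricter lists of both replicates 0 genes of this list were open in only 1 replicate.

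Olfactory receptor and clustered protocadherin genes had few promoters open in both. Olfactory receptor genes, the odorant receptors of the nose, gave 10 and 17 of 1128 (0.887% and 1.51%, below all genes), and 6 were open in both. These counts were 3 and 3 with the stricter lists, 3 and 11 with windows of 250 bp and 14 and 26 with windows of 1000 bp. The median heights of these members were 0.258 and 0.279, at the low end on each side. Their windows were CG-poor, with median ratios of 0.166 and 0.144. Clustered protocadherin genes, whose alternative promoters give neurons distinct surface identities, gave 4 and 8 of 57 (7.02% and 14.0%, against 3.18% and 2.34% of all genes) with 3 in both, and 1 and 0 with the stricter lists; Pcdhgb4 (0.540) and Pcdhgb5 (0.489) led replicate 1, and Pcdhb8 and Pcdhb10 (0.538 each) led replicate 2. The neighbours Pcdhb6, Pcdhb7 and Pcdhb8 had a separate peak each. Keratin genes gave 3 and 5 of 49 (6.12% and 10.2%), with Krt86 (0.745) and Krt8 (0.613) tallest. Zfp zinc finger genes, most of them open in both (390 of 456), gave 7 and 4 (1.54% and 0.877%).

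**Figure D4:**
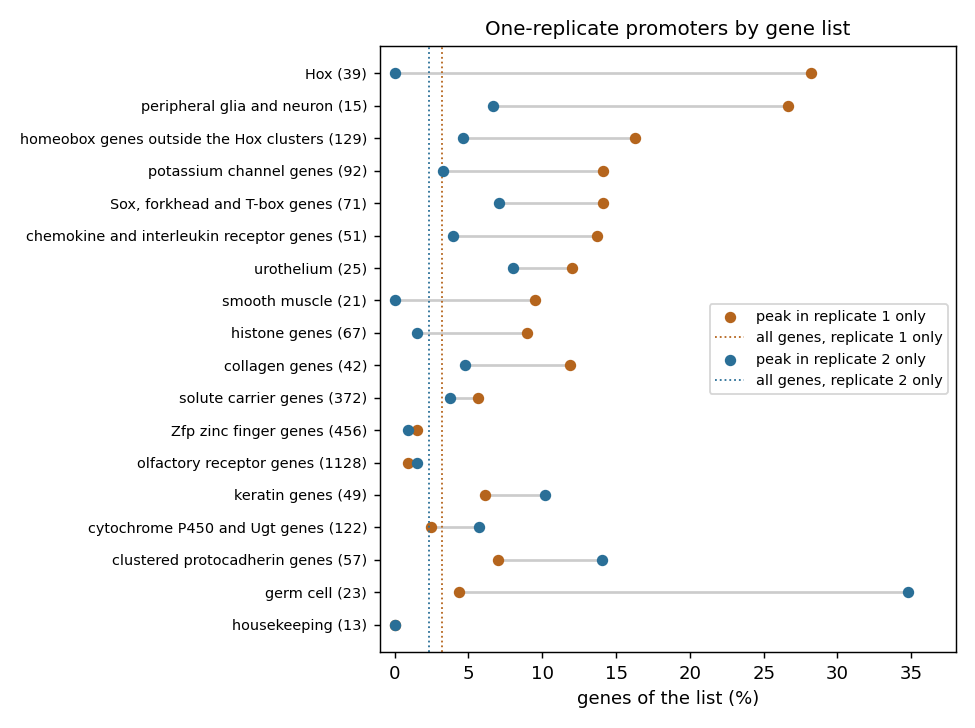
Percentage of the genes of 18 lists and classes (number of genes measured in parentheses, lists picked for the plot after their counts were seen) with a promoter peak in replicate 1 only and in replicate 2 only; dotted lines give the percentages of all genes, 3.18% and 2.34%. Hox genes stand at 28.2% and 0%, germ cell genes at 4.35% and 34.8%.

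Markers of bladder cell types also fell on both sides. Urothelial members of replicate 1 were Upk2 (0.806, 0.690 to 0.935), a uroplakin of the umbrella cell plaque, Foxa1 (0.666) and Upk3bl (0.559). Those of replicate 2 were Krt8 (0.613, 0.518 to 0.720), a simple-epithelium keratin of upper layers, and Krt5 (0.509, 0.422 to 0.607), the basal cell keratin. Upk2 and Krt8 had a listed stretch of the other replicate in their windows, at rates of 0.0301 and 0.0303, and a peak of the other replicate 380 and 913 bp away. In the smooth muscle list, Actg2 (0.657), the enteric-type smooth muscle actin, and P2rx1 (0.591), the ATP-gated channel of bladder contraction, were open in replicate 1 only and none in replicate 2 only. The fibroblast list gave 1 member of 22, Lum (0.400), a collagen-binding proteoglycan, and the endothelial list 1 of 19, the receptor gene Tie1 (0.396), both in replicate 1. These shares, 4.55% and 5.26%, are near the 5.52% of all genes. The urothelial list gave 12% in replicate 1 only and 8% in replicate 2 only, and the smooth muscle list 9.52% and 0%. All genes gave 3.18% and 2.34%.

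Nerve and other minor cell types gave further members. The 15 glial and neuronal genes gave 4 and 1 (26.7% and 6.67%, against 3.18% and 2.34% of all genes). Prph (0.615), an intermediate filament of peripheral neurons, Tubb3 (0.582), neuronal tubulin, and Foxd3 (0.559), a neural crest factor, were among those of replicate 1. Ret (0.538), the GDNF receptor of enteric and autonomic neurons, was that of replicate 2. Leukocyte genes gave Lyz2 (0.517), lysozyme of myeloid cells, and Itgax (0.0917), the integrin CD11c, 1 on each side, with 13 of 18 open in neither. Mesothelial genes gave Lrrn4 (0.396) and Muc16 (0.258), 1 of 8 on each side (12.5% each). Tnnt3 of fast skeletal muscle (0.279) was the only member of the striated muscle list. The 13 housekeeping, 16 immediate early and 12 proliferation genes were open in both throughout, and no ribosomal protein gene, Wnt or Frizzled gene or hepatocyte gene was a member.

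The lowest rate in a member's own windows set some members apart. Its median was 0.00427 for replicate 1 members and 0.00625 for replicate 2 members, but 82 and 132 members had rates under 1e-06, a limit chosen after the values were seen. Those members were not taller. Their median heights were 0.400 and 0.281, against 0.526 and 0.413 for the other 580 and 354. They were almost all in the stricter lists (97.6% and 99.2%, against 15.9% and 9.04%). Many of them, but not all, also lay in dense runs of peaks. Within 5 kb on either side of the peak centre, the member itself counted, replicate 2 members with such rates had a median of 11 peaks of replicate 2 and 0 of replicate 1, and 78 of them (59.1%) had 10 or more. Replicate 1 members with such rates had a median of 6 and 1, and 28 (34.1%) had 10 or more. Among genes open in both, 1.81% (replicate 1 peaks) and 2.40% (replicate 2 peaks) had 10 or more. Among those with heights within the quartiles of the members, the shares were 2.16% and 6.72%. Some low-rate members lay outside such runs. Around Pcdh12 (5.49e-59) lay 5 peaks of replicate 1 and 0 of replicate 2, and around Tbx15 (3.44e-54) 4 of replicate 2 and 0 of replicate 1.

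**Figure D5:**
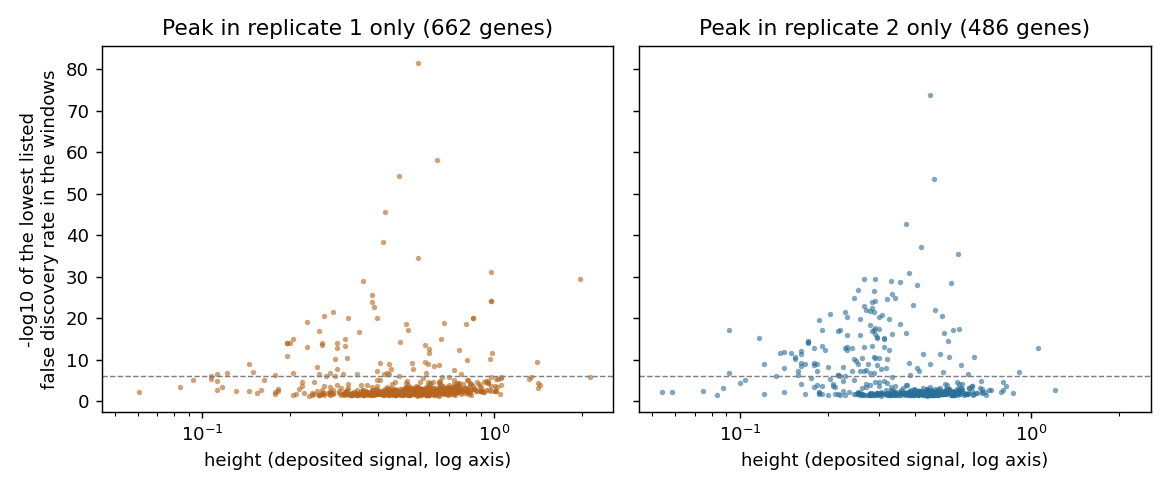
Height of each member peak (horizontal log axis, deposited signal) and -log10 of the lowest false discovery rate of its own replicate listed in the windows of the gene (vertical axis), for replicate 1 members (left) and replicate 2 members (right). The dashed line is a rate of 1e-06; 82 and 132 members lie above it, and those of replicate 2 gather at heights under 0.5.

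Single genes show the pattern. Around Tcerg1l, a transcription elongation regulator paralogue (height 0.450, lowest own rate 1.24e-74), lay 16 peaks of replicate 2 and 2 of replicate 1. Around Gm26657 (0.417, 8.16e-38) there were 18 and 4, and the adjacent actin-like genes Actl7b (0.284) and Actl7a (0.288) were replicate 2 members too, each with its own peak. Btnl6, a butyrophilin-like gene, had 23 peaks of replicate 2 and 0 of replicate 1 around a peak 0.179 high. On the replicate 1 side, Aspdh (0.549, 2.20e-82) had 20 and 6, Col6a1, a chain of collagen VI (0.577), 21 and 2, and Theg, a testis gene (0.345), 22 and 0. Hoxa6 (16 and 5), Hoxd3 and Hoxd4 (12 and 1) and Hoxc12 (10 and 0) belonged to this kind as well. None of the 8 germ cell genes of replicate 2 did, and their median count was 1, the member peak alone.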

How the data were processed

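DNase-seq peaks of the 2 bladder replicates were used as the authors deposited them, with heights as a signal of unstated scale. Per the labels, the alignments refer to mm10; aligner, peak caller, thresholds and versions were not given in the sources used here. Rate lists as deposited by the authors hold a p-value column that is a false discovery rate per stretch of bases (q-value), and the deposited footprint lists hold 0.01 throughout as a p-value, so only footprint positions were used. Overlaps, medians, exact binomial and exact Poisson intervals were computed with Python 3.11.15, numpy 2.4.6, pandas 2.3.3 and scipy 1.17.1; figures used matplotlib 3.10.9. An overlap with bedtools 2.31.1 also returned 662 and 486 members, and scripts were tested on simulated data. Poisson intervals cover counting error in height steps only. Named genes are the 10 tallest a side, the tallest of each list, the nearest and farthest and runs of neighbours, apart from some genes not reported here; the remaining Hox, germ cell and nerve members, the urea transporters and the examples of low rates were named after their values were seen. Members and lists were chosen with earlier results of these data known, and 5 name patterns of gene classes were corrected after the files were read.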

Additional observations from a re-analysis of the deposited data

How the results depend on the processing

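Total depth is unknown here, so precision was taken from the number of height steps alone. With 1 library a side, leaving out a replicate leaves no comparison. No paired analysis was possible because the replicates themselves are the sides compared. Of 84 alternative values of the main results, 56 stayed within their interval or within 1.5 times the count, and of 96 for gene lists 73 did; causes were not tested. Requiring the stricter list in 1 replicate and no list in the other, which by construction keeps fewer peaks, gave 173 and 163 members (replicate 1 and replicate 2), with median heights of 0.540 and 0.284, median distances of 5128 and 6205 bp, and 7.36% of replicate 2 members with a listed stretch of the other replicate. The stricter lists for both replicates gave 877 and 332 members, with median heights of 0.759 and 0.417, GC contents of 54.6% and 52.0%, a distance of 14011 bp for replicate 1 and listed stretches at 83.5% and 54.5%. Windows of 250 bp gave GC contents of 55.3% and 53.6% and distances of 6319 and 8316 bp; windows of 1000 bp gave 51.4% and 48.6%, and 10836 and 14270 bp. TSSs of basic transcripts gave 54.5% and 52.1%, and those of protein-coding transcripts 54.1% for replicate 1. Peak centres inside the window gave listed stretches at 22.0% and 18.3%, and counting them inside the member peak gave 8.44% for replicate 2. Leaving out members whose peak overlaps a peak of the other replicate, chosen after seeing the data, changed none of the main values beyond these limits.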

Other observations

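Of neighbouring member genes within 100 kb, 75 pairs were on the same side and 26 on opposite sides. Members that share a peak are on the same side by construction, and such pairs were not counted apart. In all, 42 replicate 1 members and 25 replicate 2 members shared their tallest peak with the window of another protein-coding gene. No reference share for neighbouring genes was computed. Runs of 3 genes with 3 separate peaks in replicate 1 included the organic cation exporters Slc47a2 and Slc47a1 with Rnf112 (0.489 to 0.554), and Tmprss4, Il10ra and Tmprss13 (0.428 to 0.554). In replicate 2 they included the antiviral synthetase genes Oas1g, Oas1a and Oas1d (0.183 to 0.304), and the secreted airway protein genes Bpifa1, Bpifa5 and Bpifb1 (0.196 to 0.292). Several of these replicate 2 peaks lay in dense runs of peaks. Within 5 kb of the peak centre lay 16 peaks of replicate 2 and 3 of replicate 1 at Bpifa1, 18 and 2 at Bpifa5, and 18 and 0 at Bpifb1. At Oas1g there were 13 and 8, and at Oas1a 7 and 0. By chromosome, the widest gap was on chromosome 11, with 70 replicate 1 members and 32 replicate 2 members of 1639 genes (4.27% and 1.95%). Chromosomes 3, 7 and 18 had more replicate 2 members, with 33 and 35, 49 and 55, and 17 and 20.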
